A study of Mus musculus with 2 samples.

Results

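The genes described here encode plasma proteins of the complement and clotting systems, with the mannose-binding lectins and a few plasma carrier proteins made beside them. The members were chosen by name, as the rows of the deposited table whose gene symbol was one of 43 listed symbols. Of these, 39 had a named probe set, among 15644 named genes in all. C1s was found under its current symbol C1s1, and C3, C4b, Kng1 and Cpb2 had no named probe set and were not analysed here. The lists and their division by role were chosen with earlier results of these data known.

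The cells were primary hepatocytes, the parenchymal cells of the liver, of male C57BL/6 mouse origin, taken at 9 weeks of age and kept in culture for 24 h. One group was then given pregnenolone 16α-carbonitrile (PCN) at 10 µmol/l for 12 h, and the other its solvent, dimethyl sulfoxide (DMSO), for the same 12 h. PCN, a synthetic steroid, is a ligand of the rodent pregnane X receptor, which turns on genes of drug metabolism. RNA of 3 samples was pooled in each group and read on 1 array, and the number of animals behind them was not recorded here. Each group is thus 1 pool, there is no replicate, and no difference below has a test, an SD or a p-value.

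Most proteins of complement and of clotting circulate as inactive precursors that are made mainly by hepatocytes. Complement is started by antibody (the classical pathway), by lectins that bind sugars on microbes (the lectin pathway) or by its own slow turnover (the alternative pathway), and all routes end in a pore built from the terminal components. Clotting proteases activate one another in a cascade that turns fibrinogen into fibrin, inhibitors hold the cascade in check, and plasmin dissolves the clot. Several clotting proteins bind calcium only after an enzyme that uses vitamin K has modified them.

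Values are the deposited intensities, and a difference is the log2 intensity with PCN minus that with DMSO. An intensity of 32 (5 on the log2 scale) served as a floor. A gene below it in both arrays was called not measured. Where 1 array alone fell below it, that value was set to 32 and the difference is a bound. Intensities of different probe sets depend on their probes and are not compared here as amounts of RNA. Of the 39 members, 37 were measured, 36 of them with both values over the floor.

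The lectin genes Mbl1 and Mbl2 differed from each other in the size of their change. They encode MBL-A and MBL-C, the mannose-binding lectins of the mouse, which recognise sugars on microbial surfaces and start the lectin pathway. Their upstream sequences are shown because the genes are close relatives whose differences with PCN were unlike. Each line gives the 250 bases before the annotated start from RefSeq, assembly GRCm38.p6, and capitals mark the stretch in which the windows align best.
Mbl1 (chr14:41151206-41151455, plus strand): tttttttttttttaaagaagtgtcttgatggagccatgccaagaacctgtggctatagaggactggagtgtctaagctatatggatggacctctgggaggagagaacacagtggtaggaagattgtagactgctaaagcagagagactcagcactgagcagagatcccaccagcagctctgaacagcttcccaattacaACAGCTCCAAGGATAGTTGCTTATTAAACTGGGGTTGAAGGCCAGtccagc
Mbl2 (chr19:30232678-30232927, plus strand): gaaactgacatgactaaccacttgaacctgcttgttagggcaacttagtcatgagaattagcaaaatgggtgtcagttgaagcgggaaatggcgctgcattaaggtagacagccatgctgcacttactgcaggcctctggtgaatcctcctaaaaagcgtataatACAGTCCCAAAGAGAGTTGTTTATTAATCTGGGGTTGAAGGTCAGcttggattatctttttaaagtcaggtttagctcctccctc

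The aligned stretch was 45 bases long, with 38 identical bases (84.4%) and no gap. It lay from 51 to 7 bases before the Mbl1 start and from 85 to 41 bases before the Mbl2 start. Counted from 1 at the first capital, with the base of Mbl2 before the position and that of Mbl1 after it, the substitutions were T5C, C6T, A11G, G14T, T20C, T28A and T42C. The Mbl2 stretch holds the hexamer AGGTCA, a core motif bound by many nuclear receptors, and T42C falls within it, so that Mbl1 lacks the hexamer at that place. A match of letters is a description of sequence, and binding was not measured.

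Mbl1 had an intensity of 62.9 with PCN, against 135 with DMSO. It was 2.15-fold lower with PCN, a log2 difference of -1.10, and ranked 10 from the lowest of 6449 measured genes. Mbl2 had 9491 with PCN, against 9885 with DMSO, a log2 difference of -0.06. The difference of Mbl1 was thus lower than that of Mbl2 by 2.06-fold. Mbl2 lay above 99.6% of named genes by intensity with PCN, where bright array signal can be compressed, and Mbl1 above 66.6%.

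The lectins act through associated serine proteases. Masp1, the protease that activates MASP-2, had 165 with PCN and 236 with DMSO and was 1.43-fold lower. Masp2, the protease that cleaves the next components of the pathway, had 173 with PCN and 208 with DMSO and was 1.20-fold lower. All 4 members of the lectin pathway were therefore lower with PCN, against 42.4% of all measured genes. Their median log2 difference was -0.39, but only Mbl1 passed 1.5-fold. Fcna, Fcnb, Colec10 and Colec11, other lectin genes that are not members, were under the floor in both arrays.

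Over all 37 measured members, 33 were lower with PCN and 4 higher. Among all 6449 measured genes 42.4% were lower and 57.6% higher. The median log2 difference was -0.15 over the members and 0.03 over all measured genes. Of 16 measured complement and lectin genes 13 were lower, with a median of -0.18, and of 18 clotting, anticoagulant and fibrinolysis genes 17 were lower, with a median of -0.13. Past 1.5-fold, 2 members were lower, Mbl1 and Proz (5.41% of members, against 1.30% of all measured genes), and none was higher, against 0.636% of all measured genes. Past a log2 difference of 0.32 in size, 8 members were lower (21.6%, against 6.17% of all genes) and 0 higher, against 5.27%. Mbl1 was the only member 2-fold or more lower, against 0.233% of all genes, and 0 members were 2-fold or more higher, against 0.0930%. Most members differed by small amounts, and with no replicate none of these could be compared with the variation among cultures.

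**Figure D1:**
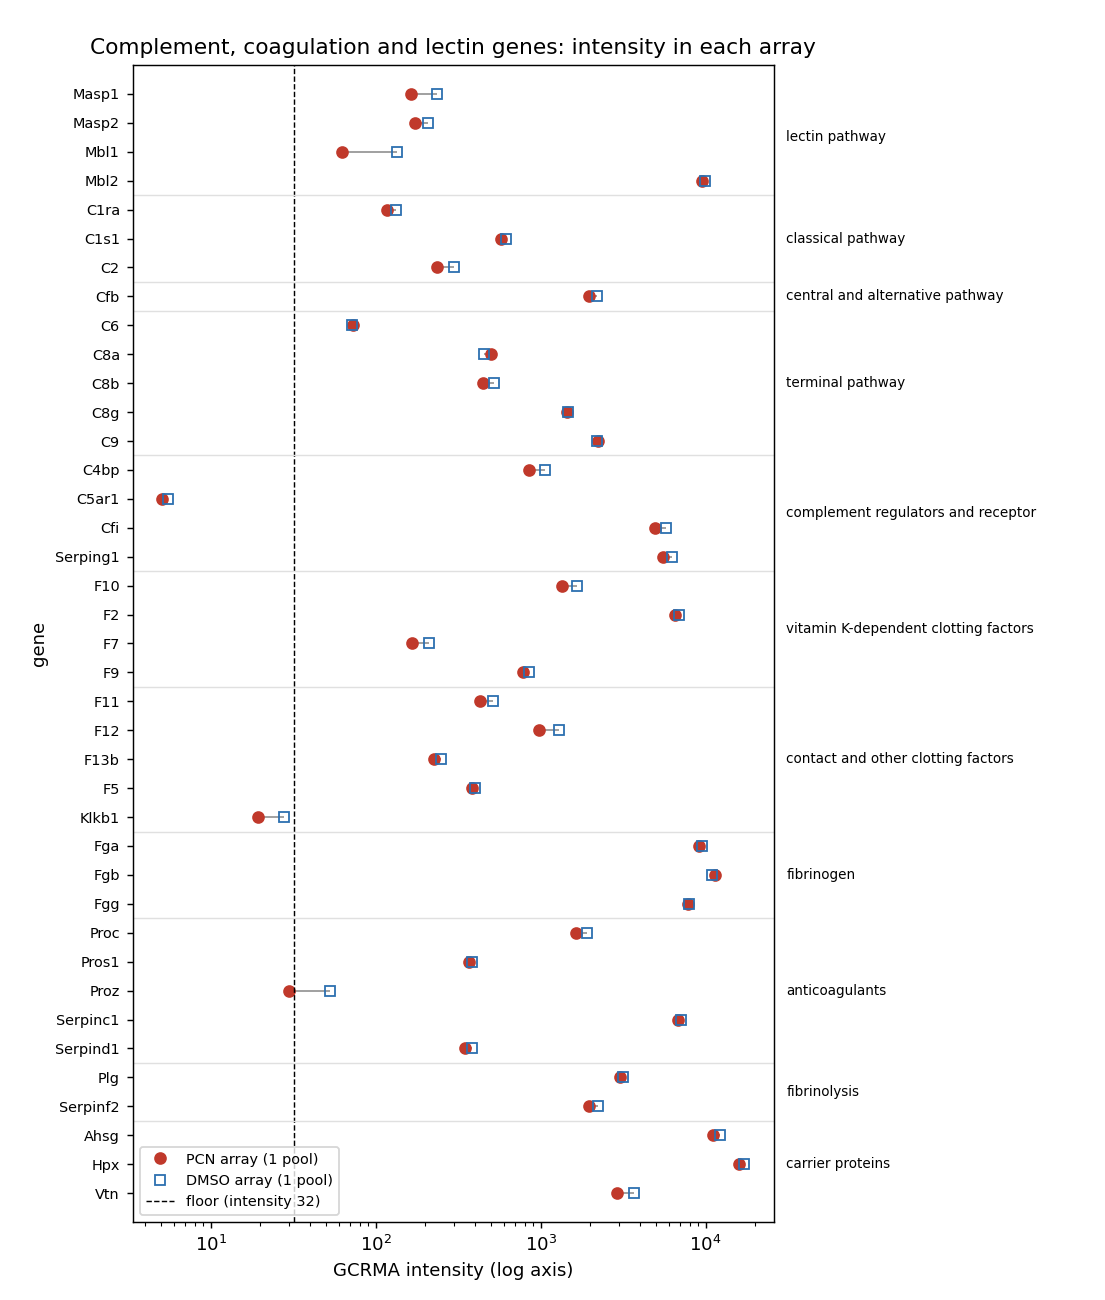
GCRMA intensity (log axis) of the 39 members with a named probe set, grouped by role, with 1 filled circle for the PCN array, 1 open square for the DMSO array and a dashed line at the floor of 32. The widest gaps are those of Mbl1 (62.9 with PCN, 135 with DMSO) and Proz (30.0 with PCN, 53.1 with DMSO), and C5ar1 and Klkb1 lie left of the floor in both arrays.

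A measure of technical spread came from 40 bacterial and phage control probe sets, whose log2 differences had an SD of 0.10 and ran from -0.33 to 0.16. This spread leaves out differences between cultures and between RNA pools. Of the members, 7 (18.9%) lay below the lowest control, against 5.61% of all measured genes, and 0 lay above the highest, against 21.7%. The 7 were Mbl1, Proz, Masp1, F12, Vtn, F7 and C2.

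The proteases that start the classical pathway were lower by small amounts. C1ra, which encodes C1r, had 117 with PCN and 134 with DMSO, a log2 difference of -0.19. C1s1, the C1s protease cleaved by C1r, had 572 with PCN and 619 with DMSO, a log2 difference of -0.11. These genes are neighbours on chromosome 6 in RefSeq, with 0 protein-coding genes between them. C2, the protease subunit of the convertase shared by the classical and lectin pathways, had 235 with PCN and 299 with DMSO and was 1.27-fold lower. Its neighbour on chromosome 17, Cfb, the corresponding subunit of the alternative pathway, had 1954 with PCN and 2204 with DMSO and was 1.13-fold lower.

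The terminal components among the members, which assemble the membrane pore, did not all share this direction. Of their 5 genes, 3 were higher and 2 lower, with a median log2 difference of 0.01. The share that was higher (60.0%) was near that of all measured genes (57.6%), whose median was 0.03. With quantile normalization, median centring or loess, 1 was higher and 4 were lower. C6 had 72.5 with PCN and 72.1 with DMSO, C9 had 2220 with PCN and 2193 with DMSO, and both were the genes whose sign turned with these scalings. C8g, the lipocalin chain of the eighth component, had 1453 with PCN and 1466 with DMSO, a log2 difference of -0.01. Hc, the gene of the fifth component, is not among the members and was lower, with a log2 difference of -0.33.

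The other chains of the eighth component differed in direction. C8a had 499 with PCN and 455 with DMSO, a log2 difference of 0.13, the highest of any measured member. Of all measured genes, 26.1% had a higher difference. C8b had 448 with PCN and 524 with DMSO, a log2 difference of -0.22, and 11.6% of all measured genes had a lower one. Both differences lay within the range of the control probe sets (-0.33 to 0.16). The change of C8a exceeded that of C8b by 1.28-fold, and the genes are neighbours on chromosome 4 and lie on opposite strands. Their windows of 250 bases before the start (RefSeq, GRCm38.p6) are shown for that reason, together with that of Proz, the member with the second lowest difference. Capitals mark the hexamer GTTAAT, part of the site of the liver factor HNF1, and the hexamers AGGTCA and AGTTCA of nuclear receptors, on either strand.
C8a (chr4:104876399-104876648, minus strand): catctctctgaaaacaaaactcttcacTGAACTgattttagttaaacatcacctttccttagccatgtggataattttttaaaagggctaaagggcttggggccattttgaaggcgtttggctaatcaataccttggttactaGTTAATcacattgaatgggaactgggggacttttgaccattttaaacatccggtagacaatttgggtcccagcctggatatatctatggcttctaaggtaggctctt
C8b (chr4:104766067-104766316, plus strand): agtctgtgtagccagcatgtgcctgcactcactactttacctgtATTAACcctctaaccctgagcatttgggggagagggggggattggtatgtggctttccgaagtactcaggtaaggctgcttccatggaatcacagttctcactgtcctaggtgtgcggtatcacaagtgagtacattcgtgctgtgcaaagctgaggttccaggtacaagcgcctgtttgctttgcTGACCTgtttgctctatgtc
Proz (chr8:13060658-13060907, plus strand): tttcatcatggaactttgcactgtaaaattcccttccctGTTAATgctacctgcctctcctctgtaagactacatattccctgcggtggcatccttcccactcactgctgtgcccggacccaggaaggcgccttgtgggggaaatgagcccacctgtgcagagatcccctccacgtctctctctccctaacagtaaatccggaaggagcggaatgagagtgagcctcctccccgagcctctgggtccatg

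In C8a the match to GTTAAT began 107 bases before the start and a reverse match to AGTTCA 223 bases before it. In C8b a reverse match to GTTAAT began 206 bases before the start and a reverse match to AGGTCA 20 bases before it. Proz held GTTAAT 211 bases before its start and none of the other hexamers. None of these matches overlapped another.

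Windows from 250 bases before to 50 bases after the start were at hand for 30 of the 37 measured members and for 27025 genes in all. GTTAAT was found in 10 of the 30 (33.3%), against 8.24% of all genes. TTGCNNAA, a motif of C/EBP factors, was also found in 10 (33.3%), against 12.2%. AGGTCA was found in 12 (40.0%), against 18.1%, and AGTTCA in 5 (16.7%), against 15.7%. The TATA box TATAAA, searched on the gene's strand alone, was found in 1 (3.33%), against 9.77%. Pairs of AGGTCA or AGTTCA were searched in some arrangements that the pregnane X receptor is known to bind. Direct repeats with 3 or 4 bases between them and everted repeats with 6 were found in 0 of the 30, against 0.0148%, 0.0296% and 0.0111% of all genes. Direct repeats with 1 base between them were also found in 0, against 0.0962%. Exact pairs are so rare among all genes that their absence from 30 windows says little about receptor sites. Both strands were searched for all but the TATA box, these motifs were chosen with results known, and windows this short leave out distant sites.

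The soluble regulators of complement were all lower. C4bp, the C4b-binding protein that takes apart the classical and lectin convertase, had 847 with PCN and 1063 with DMSO, a log2 difference of -0.33. Cfi, the protease that inactivates C3b and C4b, had 4912 with PCN and 5796 with DMSO and was 1.18-fold lower. Serping1, the C1 inhibitor, which blocks C1r, C1s, the MASPs and the contact proteases, had 5554 with PCN and 6253 with DMSO and was 1.13-fold lower. C5ar1, the receptor of the fragment C5a found mainly on myeloid cells, was not measured, with 5.06 with PCN and 5.54 with DMSO.

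**Figure D2:**
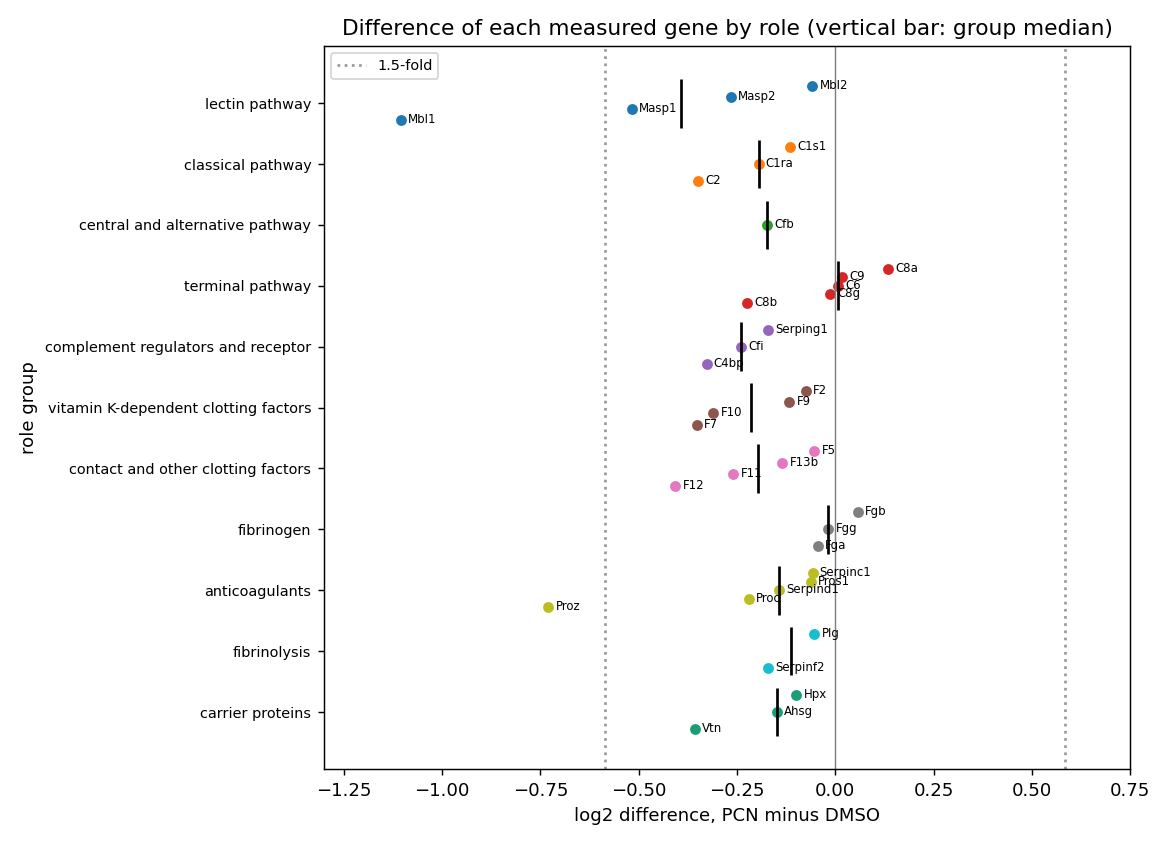
Log2 difference, PCN minus DMSO, of the 37 measured members by role group (rows), with 1 point per gene, a black bar at each group's median and dotted lines at 1.5-fold. The lectin pathway has the lowest median (-0.39), and the medians of fibrinogen (-0.02) and the terminal pathway (0.01) lie nearest to 0.

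The 4 clotting factors that depend on vitamin K were lower, with a median log2 difference of -0.21. F7, which starts clotting with tissue factor, had 165 with PCN and 211 with DMSO and was 1.28-fold lower. F10, which forms thrombin from prothrombin, had 1345 with PCN and 1667 with DMSO and was 1.24-fold lower. F9, the factor lacking in haemophilia B, differed by -0.12, with 786 with PCN and 852 with DMSO. F2, prothrombin itself, had 6528 with PCN and 6879 with DMSO, a log2 difference of -0.08.

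Among the anticoagulant genes all 5 were lower, and 3 of them also need vitamin K. Proz, the cofactor with which a serpin inhibits factor Xa, had 30.0 with PCN, under the floor, and 53.1 with DMSO. It was at least 1.66-fold lower, or -0.82 on the log2 scale with the PCN value as deposited, and ranked 46 from the lowest of all measured genes. Proz follows F7 and F10 on chromosome 8, with 0 protein-coding genes between these neighbours, and all 3 were lower. Proc, protein C, which inactivates factors Va and VIIIa, had 1643 with PCN and 1913 with DMSO and was 1.16-fold lower. Its cofactor Pros1 had 367 with PCN and 383 with DMSO, a log2 difference of -0.06.

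The remaining anticoagulants are serpins that trap thrombin. Serpinc1, antithrombin, had 6850 with PCN and 7131 with DMSO, a log2 difference of -0.06. Serpind1, heparin cofactor II, had 349 with PCN and 386 with DMSO, a log2 difference of -0.14.

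The contact proteases start clotting on charged surfaces. F12, the first of them, had 975 with PCN and 1293 with DMSO and was 1.33-fold lower, ranking 244 from the lowest of all measured genes. F11, its substrate, had 431 with PCN and 516 with DMSO and was 1.20-fold lower. Klkb1, plasma prekallikrein and the neighbour of F11 on chromosome 8, was under the floor in both arrays, with 19.3 with PCN and 27.8 with DMSO. F5, the cofactor of factor Xa, had 386 with PCN and 401 with DMSO, a log2 difference of -0.05. F13b, the carrier subunit of the factor that cross-links fibrin, had 226 with PCN and 248 with DMSO, a log2 difference of -0.13.

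The fibrinogen genes had small differences. The chains of this protein are encoded by neighbouring genes on chromosome 3. Fga had 9173 with PCN and 9464 with DMSO, a log2 difference of -0.05. Fgb had 11390 with PCN and 10947 with DMSO, a log2 difference of 0.06. Fgg had 7788 with PCN and 7882 with DMSO, a log2 difference of -0.02. All 3 chains lay above 99.5% of named genes by intensity with PCN.

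Both measured genes of fibrinolysis were lower by small amounts. Plg, plasminogen, the precursor of plasmin, had 3049 with PCN and 3164 with DMSO, a log2 difference of -0.05. Serpinf2, the plasmin inhibitor, had 1976 with PCN and 2223 with DMSO, a log2 difference of -0.17. Of the carrier proteins, Vtn, vitronectin, which binds terminal complement complexes and the inhibitor PAI-1, had 2893 with PCN and 3705 with DMSO and was 1.28-fold lower. Ahsg, fetuin-A, an inhibitor of calcium phosphate precipitation, had 11059 with PCN and 12253 with DMSO, a log2 difference of -0.15. Hpx, hemopexin, which binds free heme, had 16044 with PCN and 17187 with DMSO, a log2 difference of -0.10.

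The differences were also set against intensity. Over the 37 members, the log2 difference and the mean log2 intensity had a Spearman rho of 0.41, against 0.04 over all 6449 measured genes. These genes share the same pair of arrays and are not independent. In the top quintile of measured genes by intensity lay 20 of the members, of which 18 were lower with PCN, with a median log2 difference of -0.12. All genes of that quintile had a median of 0.03, and 41.4% of them were lower. Outside it, 15 of 17 members were lower, with a median of -0.19, against 42.7% of all genes there and a median of 0.03. Most members were thus lower both inside and outside the top quintile, and the lowest differences, those of Mbl1, Proz and Masp1, lay outside it.

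**Figure D3:**
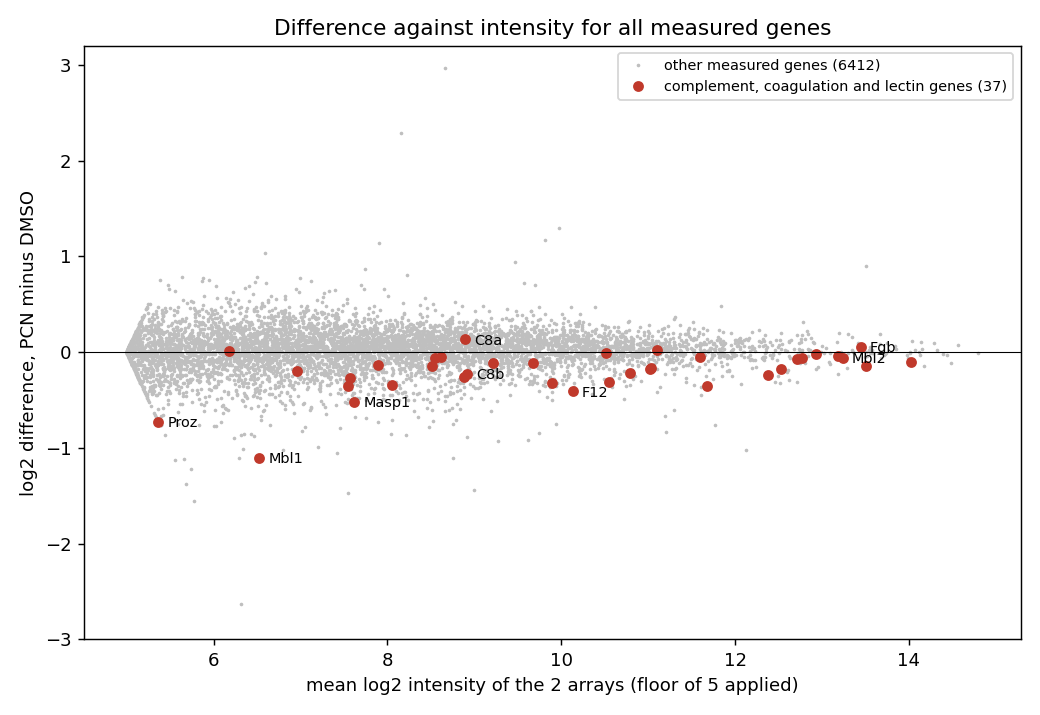
Log2 difference, PCN minus DMSO, against the mean log2 intensity of the 2 arrays for 6449 measured genes, with 1 grey dot per other gene and 1 red circle per member. The members lie mostly below 0 at every intensity, from Proz (-0.73, a bound) and Mbl1 (-1.10) among the dim genes to Mbl2 (-0.06) and Fgb (0.06) among the brightest.

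The genes that act around these proteins were taken from a list written by name. Of 7 other complement genes that were measured, 6 were lower and 1 higher, with a median log2 difference of -0.33. Past a log2 size of 0.32, 4 of the 7 were lower (57.1%), against 4 of the 16 complement and lectin members and 6.17% of all measured genes. Cpn1, the catalytic subunit of the carboxypeptidase that inactivates complement fragments, had 389 with PCN and 514 with DMSO and was 1.32-fold lower. Crp, a pentraxin that can bind C1q, had 1522 with PCN and 1945 with DMSO and was 1.28-fold lower. Hc, the mouse gene of the fifth component, had 723 with PCN and 909 with DMSO and was 1.26-fold lower. Cr1l, a membrane regulator of complement in the mouse, was 1.13-fold higher, with 318 with PCN and 281 with DMSO.

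Other coagulation and fibrinolysis genes went both ways, much as all measured genes did. Of 20 measured, 11 were higher (55.0%, against 57.6% of all measured genes) and 9 lower (45.0%, against 42.4%). Their median log2 difference was 0.03, as over all measured genes. Past a log2 size of 0.32, 20.0% were lower, against 6.17% of all measured genes, and 10.0% higher, against 5.27%. The lowest was Serpina10, the serpin that inhibits factor Xa with protein Z as its cofactor, which had 2043 with PCN and 3110 with DMSO and was 1.52-fold lower. Both partners of that inhibitor pair, Proz and Serpina10, thus passed 1.5-fold, which 1.30% of all measured genes did in that direction. Vkorc1, which recycles vitamin K, had 1123 with PCN and 1516 with DMSO and was 1.35-fold lower. Ggcx, the carboxylase that uses vitamin K, had 52.4 with PCN and 72.1 with DMSO and was 1.37-fold lower. Gas6, a vitamin K-dependent ligand of TAM receptors, had 779 with PCN and 1079 with DMSO and was 1.38-fold lower.

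Set together after their values were seen, the 7 members that depend on vitamin K and Gas6 were lower in 8 of 8 genes, with a median log2 difference of -0.26 and a range from -0.73 to -0.06. Over all members 89.2% were lower, and over all measured genes 42.4%. Of the genes that were higher, Procr, the endothelial protein C receptor, had 50.9 with PCN and 37.8 with DMSO and was 1.35-fold higher. Plat, tissue plasminogen activator, had 382 with PCN and 291 with DMSO and was 1.31-fold higher. F3, tissue factor, was 1.14-fold higher, S100a10, which binds plasminogen at the cell surface, 1.13-fold, and Plaur, the urokinase receptor, 1.12-fold.

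Other plasma proteins of hepatocytes shared the direction of the members but by less. Of 18 measured, 16 were lower (88.9%, against 42.4% of all measured genes), with a median log2 difference of -0.06. Past a log2 size of 0.32, 0 were lower, against 6.17% of all measured genes, and 0 higher, against 5.27%. The lowest, Azgp1, lay just inside that size, with a log2 difference of -0.31. Alb, albumin, had 21383 with PCN and 21685 with DMSO, a log2 difference of -0.02.

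**Figure D4:**
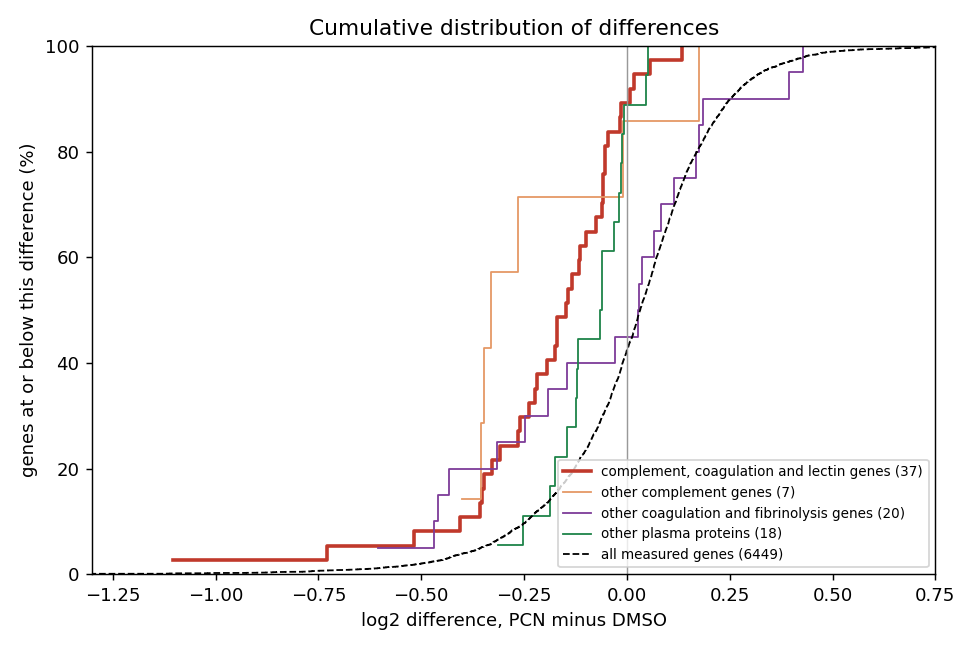
Share of genes (%) at or below each log2 difference, PCN minus DMSO, for the 37 members, 3 lists of related genes and all 6449 measured genes. The curve of the members reaches 89.2% at 0, against 42.4% for all measured genes, and that of the other coagulation genes reaches 45.0% there but lies above the curve of all genes in the lower tail (20.0% at or below -0.32, against 6.17%).

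Markers of hepatocytes were mostly present, with 8 of 10 listed genes measured, against 6449 of 15644 named genes. Of the 8, 7 were lower (87.5%, against 42.4% of all measured genes and 89.2% of members) and 1 higher. The lists overlap. Alb, Ttr and Trf were also counted among the other plasma proteins, and Serpina1a among the other coagulation genes. Their median log2 difference was -0.03. Asgr1 had 406 with PCN and 551 with DMSO and was 1.36-fold lower, Hnf4a had 457 with PCN and 529 with DMSO, a log2 difference of -0.21, and Tat was under the floor in both arrays (14.9 with PCN and 23.9 with DMSO). The summed intensity of the list, carried by bright genes such as Alb and Trf, was 85547 with PCN and 86990 with DMSO. Among 16 markers of Kupffer cells and leukocytes, 4 passed the floor (2 higher, 2 lower), with summed intensities of 3603 with PCN and 3471 with DMSO. The 4 were Cd14 (1802 with PCN and 1619 with DMSO), Cd68 (1626 with PCN and 1690 with DMSO) and, close to the floor, C1qa (30.0 with PCN and 34.9 with DMSO) and C1qb (38.1 with PCN and 26.7 with DMSO). The other markers of that list with a named probe set, among them Adgre1, Clec4f and Csf1r, were under the floor in both arrays. Sums are over all listed markers with a named probe set, those under the floor included, and serve only to set the arrays side by side. Of endothelial markers 2 of 9 were measured (summed 155 with PCN and 142 with DMSO), of stellate cell markers 2 of 9 (401 with PCN and 447 with DMSO) and of bile duct markers 2 of 6 (333 with PCN and 310.03 with DMSO). Of platelet and megakaryocyte markers 0 of 5 were measured (37.5 with PCN and 33.9 with DMSO). Their part in the results was not tested, and in pooled RNA fewer cells of a type and less RNA per cell cannot be told apart. Probe sets for 18S ribosomal RNA were lower with PCN by log2 differences from -0.67 to -0.34, and their part was likewise not tested.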

How the data were processed

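Total RNA (5 µg, pooled from 3 samples per group) was labelled with biotin and read on 1-colour Affymetrix arrays, 1 per group, per the labels' protocols. The authors deposited linear GCRMA intensities, made with GCRMA 2.2.0 per the submitters' processing notes. The method corrects background and gives arrays a common distribution, which hides any change in total RNA per cell. The build and the definition of probe sets were not given in the sources used here.

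The table held 16395 probe sets, of which 64 were controls, 15644 carried 1 gene symbol, 0 carried several and 687 were unnamed here. From these intensities, log2 differences (PCN minus DMSO) were taken (pandas 2.3.3 and numpy 2.4.6 under Python 3.11.15), with a floor of 5 on the log2 scale and thresholds of 1.5-fold, 2-fold and 0.32 on the log2 scale. The floor is a choice, since no detection calls were used. No test was run, with 1 array per group, and precision is limited by the number of arrays. Array batch and treatment cannot be told apart. The procedure was run on simulated data with 2-fold changes placed only in genes well above the floor. That run tests neither small differences nor genes near the floor. Alternatives were other floors, no floor, quantile normalization, median centring and loess (statsmodels 0.14.6, fraction 0.3).

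The members and lists were chosen with earlier results of these data known. All measured members were named, with the 6 other genes of each direction with the largest differences. Hc, the markers, Alb and the windows of C8b and Proz were added after their values were seen. Of the 39 members, 39 were found in RefSeq (GRCm38.p6), which gave neighbours and upstream windows.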

Additional observations from a re-analysis of the deposited data

How the results depend on the processing

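Every alternative was planned. The number of members lower by 1.5-fold or more was 2, and it was 1 with a floor of 6, under which Proz was no longer measured, 1 with a threshold of 2-fold and 8 with a threshold of 0.32 on the log2 scale. It was 2 under the other settings, and 0 members were higher past any threshold. The number of lower members ranged from 32 of 36 measured with a floor of 6 to 35 of 37 with each scaling, and the median log2 difference from -0.18 to -0.15. Of 221 member values under alternatives, 221 lay within the control SD of the value given. The sign changed in 6 of them, all of C6 or C9, whose differences were no larger than 0.02. The settings of the floor could move only members with a value near it, here Proz and Mbl1. Median centring moved all members by the same amount. Much of the count of 221 was thus fixed in advance, and Proz with a floor of 6 is not in it. The median of all genes lay between 0.00 and 0.04 throughout. No replicate could be left out. No paired analysis was possible because there was 1 array per group. Low signal limits Proz, Klkb1 and C5ar1, and compression at high signal may limit Mbl2 and fibrinogen. Mbl1 with PCN lay just under the floor of 6, with which its log2 difference was a bound of -1.08. In the intensity quintile of Mbl1 the 5th and 95th percentiles of all differences were -0.43 and 0.41. In that of Mbl2 they were -0.25 and 0.23.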
